A study of Homo sapiens with 2 samples.

Results

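The caspases and the proteins of the cytochrome c route of apoptosis were followed at the transcript level in Y79 cells, an established human retinoblastoma line that grows in suspension. The set held 8 genes, namely CASP2, CASP6, CASP8, CASP9, APAF1, CYCS, DIABLO and AIFM1, out of 30967 distinct gene names on the array. Every transcript probe listed under one of these symbols was taken, which gave 14 probes for 7 genes. AIFM1 had no probe under its present symbol and was found under its older symbol PDCD8, which brought the set to 15 of 40976 probes. The accession of 14 of the 15 probes led to the same gene in the RefSeq table, and that of the other probe was not in it.

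The data were 2 one-color arrays, 1 per condition. One array carried RNA of untreated Y79 cells and the other RNA of Y79 cells collected 48 h after treatment with an siRNA against Ep-CAM, a cell adhesion protein whose gene carries the older symbol TACSTD1 on this array. By the study's methods both cultures had been exposed to AZC, a DNA demethylating agent, whereas the labels give the siRNA alone. The reference was an untreated culture, so the effects of transfection and those of the Ep-CAM siRNA cannot be told apart. With 1 array per condition, every ratio compares 2 hybridizations, no test was possible and no p-value is given, and the number of arrays limits the precision. In a bulk sample, fewer cells of a type and less RNA per cell cannot be told apart.

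Apoptosis is a form of cell death carried out by caspases, proteases that cut their targets after aspartate residues. Initiator caspases are activated in large complexes and then cleave the effector caspases that dismantle the cell. In the mitochondrial route, cytochrome c leaves the space between the mitochondrial membranes and binds Apaf-1, and together they form the apoptosome, the platform on which caspase-9 is activated. Smac, the product of DIABLO, leaves the mitochondrion as well and relieves caspases of their inhibitors, the IAP proteins. Caspases are made as inactive precursors that are switched on by cleavage and assembly, steps that a transcript array does not measure.

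A few facts of the arrays bear on the values. The median processed signal of all transcript spots was 48.9 for untreated cells and 50.0 after the siRNA, and a level below is a signal divided by that median. Of the transcript spots, 70.4% and 68.0% were well above background by the scanner software's own flag. The SD of the log2 ratio over the spots of a probe printed repeatedly had a median of 0.14 over 191 probes. Over the 26975 probes measured on both arrays the log2 ratio had an SD of 0.33. In 1 corner of the array, bounded by rows 355 and 532 and by columns 43 and 85, that SD was 0.51, against 0.29 elsewhere. The Ep-CAM probe itself was dim (not flagged well above background) in both hybridizations, with signals of 15.6 and 11.96, so the target transcript did not check the labels. Of 9 markers of the photoreceptor lineage 7 had a probe under the symbol looked up, and 4 of these (CRX, OTX2, ARR3 and THRB) were well above background in 1 culture or both, while NRL, PDE6H and RXRG were not. Of 7 markers of other cell types 5 (COL1A1, COL1A2, GFAP, PTPRC and RLBP1) were also well above background. GFAP and PTPRC had dim probes as well. The summed level of the lineage markers was 6.06 in untreated cells and 4.86 after the siRNA, that of the others was 8.75 and 9.12, and their part in the results was not tested. The sums take in every probe, dim ones included, and the other markers had more probes. The sum of one set is therefore not to be compared with that of the other.

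Probes of CYCS, CASP8 and CASP2 are shown because the 3 probes of each of these genes did not read alike. Each line gives 30 bases of a deposited probe of 60 bases, read 5′ to 3′, and probes are told apart by their row and column on the array. No letters are marked by capitals.
CYCS at row 480, column 78: actccaattcagtaaatggtatcactcgtt
CYCS at row 386, column 35: ctaggactagaaccagtggtctgtaacaaa
CASP8 at row 165, column 50: aatccagctatgaatatagagggcttatga
CASP8 at row 212, column 63: tttcagaagaagtgagcagatcagaattga
CASP2 at row 132, column 42: agaactggttcttgccttccccttgaacct
CASP2 at row 73, column 6: tttaatgtagacattatcttttggctctga
CASP2 at row 427, column 64: tgataaaatgttccttttgacaatatacac

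The probes of the caspases and apoptosome genes that were measured on both arrays differed little between the cultures. Of the 15 probes, 9 were well above background on both arrays, 2 after the siRNA only and 4 on neither. The 9 measured probes had log2 ratios, siRNA-treated over untreated, between -0.32 and 0.14, that is ratios of 0.803 to 1.10. Their median was -0.00, beside -0.03 over all 26975 measured probes, with 4 ratios above and 5 below 0. For 8 of the 9 the ratio was no larger than its error by the scanner software's error model (0.20 to 0.32 on the log2 scale), and for all 9 it was within the SD of the 500 probes of nearest mean level (0.29 to 0.35). For the repeatedly printed CASP8 probe both are unlike measures. Its ratio averages 8 spots with an SD of 0.08, whereas the error is that of a single spot and the SD is over probes mostly printed once. These errors describe the arrays and leave out the variation between cultures. The measured probes of APAF1, CASP6, AIFM1 and CYCS had signals of 28.1 to 41.2. The lowest signals well above background were 14.9 and 17.5 on the arrays. Ratios of signals this low say little about a lack of change.

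At a ratio of at least 2.0, 1 of the 11 probes that were not dim throughout was higher, a probe of CYCS, and 0 were lower at a ratio of at most 0.5. Over all 29396 such probes, 372 (1.27%) were higher and 272 (0.925%) were lower. The CYCS probe was dim in untreated cells and well above background after the siRNA, and of the 672 probes of that kind 158 (23.5%) were called higher. A count of 1 in 11 is too small to be set apart from the background.

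**Figure D1:**
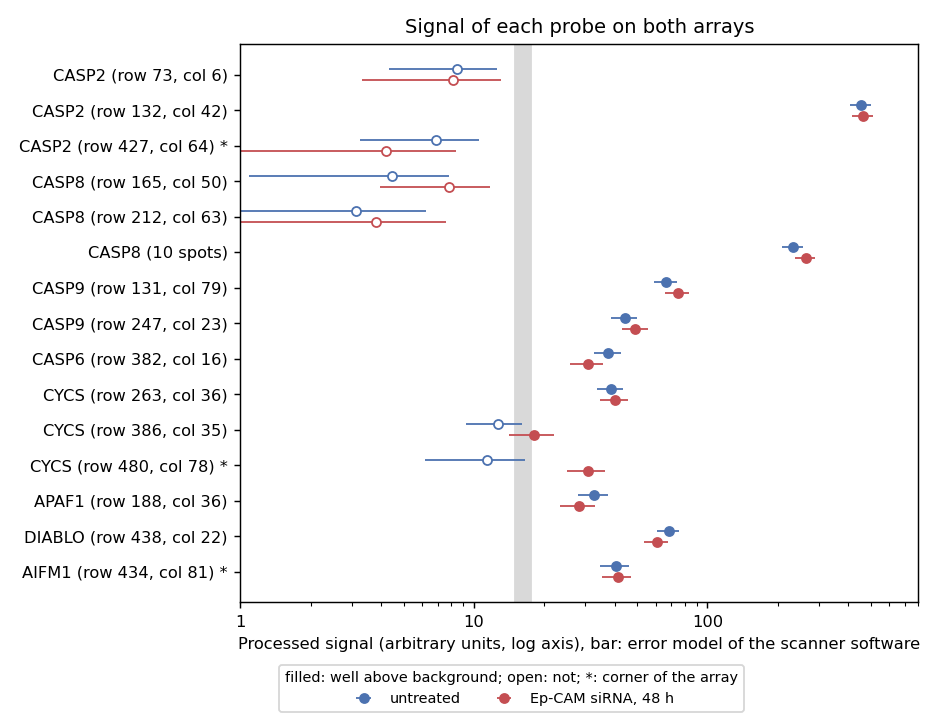
Processed signal of each probe in arbitrary units on a log axis that starts at 1, for the untreated array and the array of cells 48 h after Ep-CAM siRNA, 1 array each. Bars are the error of the scanner software's error model, the grey band spans the lowest signals well above background on the arrays (14.9 and 17.5), and signals are to be compared within a row only. For the repeatedly printed CASP8 probe the bar is the error of a single spot. The 9 probes filled on both arrays moved little, whereas 2 CYCS probes were open on the untreated array and filled on the other.

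CYCS encodes cytochrome c, the electron carrier of the respiratory chain that triggers apoptosome assembly once it is in the cytosol. Its 3 probes lay on chromosome 7 of hg17, on the minus strand, and gave unlike readings. The probe at row 263, column 36 (chr7:24931560-24931619) had a signal of 38.6 ± 4.95 without and 40.1 ± 5.36 with the siRNA, where ± is the error model's error. Its log2 ratio was 0.02 ± 0.27, so the signals lay well within each other's error.

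The CYCS probe at row 480, column 78 (chr7:24931505-24931537) was the single probe of the set past the threshold. Its signal was 11.4 ± 5.17 on the untreated array, where the probe was dim, and 30.8 ± 5.73 after the siRNA. Taken against the lowest level well above background, its bound after the siRNA was 2.01-fold higher. This is a log2 bound of 1.01 that sits almost on the threshold of 1. The bound takes no account of the error of the signal. With 30.8 less its error in place of 30.8, the bound falls short of the threshold. In the coordinates of the array design this probe of 60 bases covers 33 positions, so part of it has no position there. Between these positions and the probe at row 263, whose log2 ratio was 0.02, lie 22 bases.

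The third CYCS probe, at row 386, column 35 (chr7:24933249-24933308), had a signal of 12.7 ± 3.41 on the untreated array and 18.1 ± 4.03 on the other, where it was just above background. Its bound was 1.18-fold, which lay within the error of the signal, since 18.1 less its error is below the lowest signal well above background. A probe kept through the siRNA-treated array alone can read only higher, so the direction of these bounds follows from the filter. The single CYCS probe with a signal well above background on both arrays showed a ratio near 1. The RefSeq table lists 45 pseudogenes of CYCS. The genome was not searched for other matches of the probes.

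The surroundings of the CYCS probe at row 480 differed from those of the other probes of the set. It lay in the corner described above, where 266 of 4986 probes (5.33%) were called higher, against 106 of 24410 (0.434%) elsewhere. Among the 64 measured spots within 5 rows and 5 columns of it, the log2 ratio had a median of 0.29 and an SD of 0.88, and 12 were higher and 2 lower by the same thresholds. Around the other 13 probes printed once the SD was 0.22 to 0.44, and no more than 2 measured spots in a neighbourhood were higher.

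Of the 8 spots directly beside it, the probe for PGC, pepsinogen C, was higher at a log2 ratio of 1.49. The probe for CD24, a cell surface glycoprotein, read 0.72, and that for TRIM74 read 0.62. The probe for PRR8 was dim on the untreated array, with a bound of 1.72-fold higher. PABPN1, a nuclear poly(A)-binding protein, read -0.85, and RAC2, a small GTPase, read -0.06. The spots for LOC344382 and PGR, the progesterone receptor, were dim on both arrays. Ratios above and below 0 were thus found side by side at this place, and their part in the CYCS value was not tested.

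With the median log2 ratio of its neighbourhood subtracted, the CYCS bound was 0.72, short of the threshold. It was 0.43 and 0.27 in the 2 normexp fits described below and 0.26 with the value table of the series. The normexp fits add an offset of 50, and the value table keeps the background in the signal. Either shrinks the ratio of a dim probe by construction, so these bounds do not check the call independently. With the corner left out, or with only probes well above background on both arrays, 0 probes of the set were past the threshold. The scaling between arrays made little difference to it, with bounds of 1.01 to 1.04 under the 4 other scalings.

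**Figure D2:**
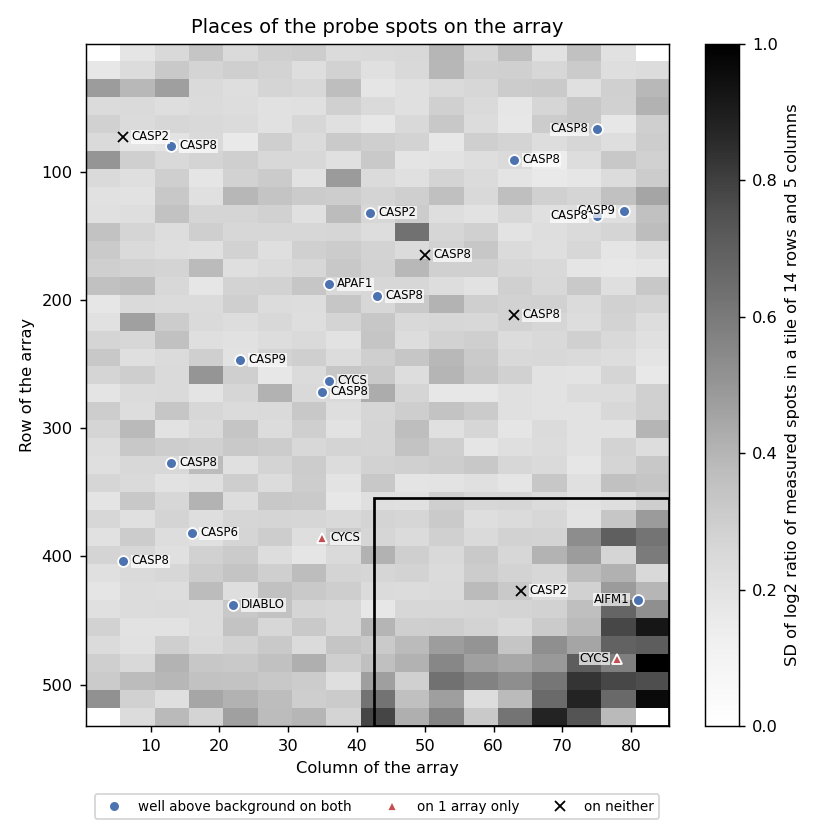
Places of the spots of the 15 probes by row and column of the array, with symbols for probes well above background on both arrays, on 1 and on neither. CASP8 spots with an outlier flag are not drawn, among them the spot at row 487, column 58, in the corner. The grey scale is the SD of the log2 ratio of the measured spots in tiles of 14 rows and 5 columns, and the box marks the corner, in which the SD over probes was 0.51 against 0.29 elsewhere. The CYCS spot at row 480 lies among the dark tiles of the box.

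APAF1 encodes Apaf-1, the scaffold that cytochrome c turns into the apoptosome. Its probe (chr12:97630885-97630944) had a signal of 32.7 ± 4.68 without and 28.1 ± 4.72 with the siRNA, a log2 ratio of -0.25 ± 0.32. The probe was well above background on both arrays and lay outside the corner, and the difference was smaller than its error.

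CASP9 encodes the initiator caspase that the apoptosome activates. The probe at row 131 (chr1:15564285-15564344) read 66.4 ± 7.56 and 74.5 ± 8.67, a log2 ratio of 0.13 ± 0.24. The probe at row 247 (chr1:15564168-15564227) read 44.3 ± 5.50 and 49.2 ± 6.24, a log2 ratio of 0.12 ± 0.26. These 2 probes of CASP9 lie far apart on the array and next to each other in the gene, and their ratios differed by less than their errors.

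DIABLO, the gene of the IAP antagonist Smac, was measured by 1 probe (chr12:121217438-121217497). It read 68.2 ± 7.65 without and 60.8 ± 7.22 with the siRNA, a log2 ratio of -0.20 ± 0.24. AIFM1, whose product is a mitochondrial flavoprotein that can pass to the nucleus in a caspase-independent form of cell death, read 40.4 ± 5.89 and 41.2 ± 5.95 (chrX:128988935-128988994). Its log2 ratio was -0.01 ± 0.30. The AIFM1 spot lay in the corner too, at row 434, column 81, where the 62 measured neighbours had a median of -0.02 and an SD of 0.44.

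CASP8 encodes the initiator caspase that death receptors recruit through the adaptor FADD. One of its probes (chr2:201976990-201977049) was printed at 10 spots, which gives a technical spread of its own. Over the 8 spots without an outlier flag the level was 4.75 ± 0.18 (SD, 8 spots) in untreated cells and 5.25 ± 0.41 after the siRNA. It ranged from 4.48 to 5.01 with a median of 4.75 on the first array and from 4.75 to 6.02 with a median of 5.21 on the second, so the ranges overlapped. The log2 ratio was 0.14 ± 0.08 over the spots, with each of the 8 above 0, from 0.04 to 0.27.

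All 10 spots together gave a log2 ratio of 0.11 ± 0.12, and the spot at row 276, column 85, which carried an outlier flag on the siRNA-treated array, read -0.18. The 10 spots repeat 1 hybridization, so their spread says nothing of other cultures. A difference of this size was also within the SD of 0.29 among the 500 probes of nearest level. Those probes were mostly printed once, so that SD is not a like measure for a mean over repeated spots.

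**Figure D3:**
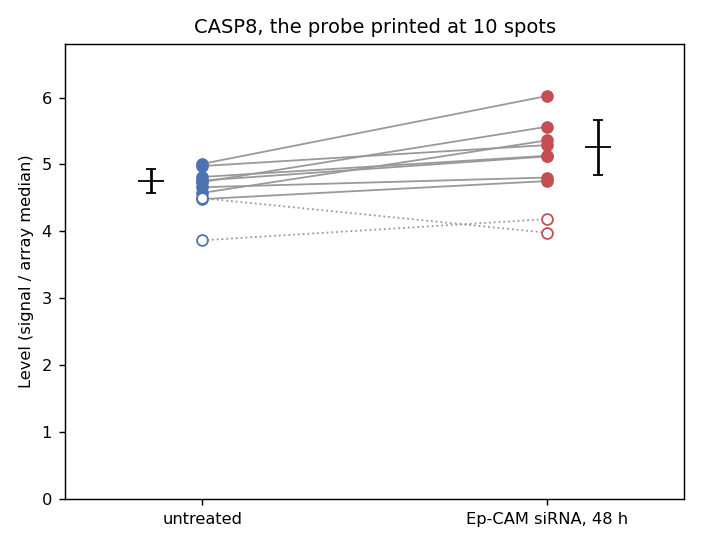
Level of the CASP8 probe at each of its 10 spots, as signal divided by the array median, on the untreated array and the array of Ep-CAM siRNA-treated cells. Lines join the same spot, open points with dotted lines carried an outlier flag on either array, and the bars give the mean ± SD of the 8 others, 4.75 ± 0.18 and 5.25 ± 0.41. All of the 8 lines rise, by 0.04 to 0.27 on the log2 scale.

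The other CASP8 probes were dim. The one at row 165 (chr2:201977344-201977403) had signals of 4.46 ± 3.38 and 7.86 ± 3.91, and the one at row 212 (chr2:201961762-201961821) had signals of 3.12 ± 3.11 and 3.82 ± 3.81. Signals this close to their errors bound nothing, so no ratio is given for them. Among the probes of this gene, 1 with repeated spots was bright and 2 were dim. Whether the bright probe reads transcripts of CASP8 alone was not tested.

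CASP2 encodes an initiator caspase that is activated in a complex with PIDD1 and CRADD. Its probe at row 132 (chr7:142520830-142520889) read 453 ± 45.5 without and 464 ± 46.5 with the siRNA, a log2 ratio of -0.00 ± 0.20. The probe at row 73 (chr7:142519474-142519533) read 8.43 ± 4.09 and 8.16 ± 4.85. The probe at row 427 in the corner (chr7:142521287-142521346) read 6.89 ± 3.63 and 4.19 ± 4.19. The first was well above background with signals that hardly differed, and the other 2 were dim throughout.

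CASP6 encodes an effector caspase that cleaves nuclear lamins. Its probe (chr4:110968249-110968308) read 37.5 ± 5.01 without and 30.8 ± 4.97 with the siRNA. The log2 ratio of -0.32 ± 0.30 was the lowest of the set and the single one that passed its own error, by a small margin. It was within the SD of 0.32 of the 500 probes of nearest level, and the probe's 76 measured neighbours had a median of -0.02.

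Several of these small ratios changed sign when the signals were computed otherwise. With normexp background correction and an offset of 50 on the raw brightness, in place of the processed signal, the log2 ratio was 0.03 for CASP6, 0.10 for APAF1, -0.31 for the CASP8 probe at 10 spots, -0.11 for the CASP9 probe at row 131 and -0.47 for CASP2, and 0 probes of the set were past the threshold. That fit called 1056 of all probes lower and 45 higher. A second fit without spots dimmer than their local background kept the sign that the processed signal gave for 3 of these genes, with -0.10 for CASP6, -0.07 for APAF1 and 0.10 for CASP8, and gave -0.02 for CASP9 and 0.04 for CASP2. No direction is therefore given for these genes.

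**Figure D4:**
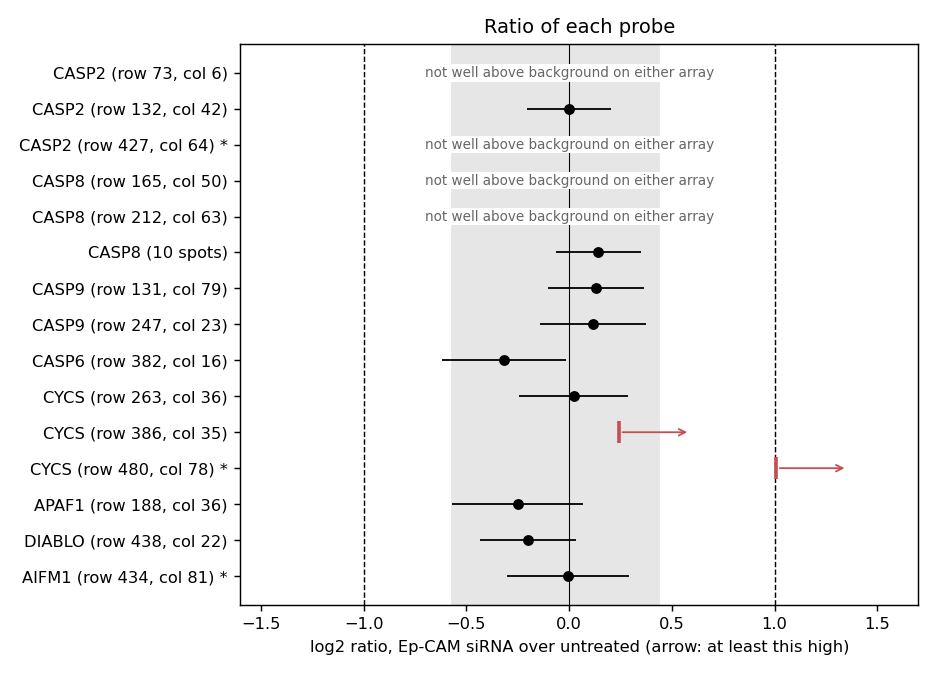
The log2 ratio of each probe, Ep-CAM siRNA-treated over untreated, with the error of the scanner software's error model as bars and lower bounds as arrows. For the repeatedly printed CASP8 probe the bar is the error of a single spot. Dashed lines mark the thresholds of -1 and 1, the grey band runs from the 5th to the 95th percentile of all measured probes (-0.57 to 0.44), and asterisks mark spots in the corner. All 9 measured probes lie within the band, and of the bounds the CYCS probe at row 480 begins at 1.01.

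Lists of other genes of the pathway were looked up in the same way. Together 46 further genes had 67 probes, of which 56 were not dim throughout, 0 of them higher and 1 lower at the thresholds used. Over all 29396 such probes 1.27% were higher and 0.925% lower. Counts this small, and those of the single lists below, cannot be set apart from that background. The median log2 ratio of the 51 measured probes of the further genes was -0.04, beside -0.03 over all measured probes, with 21 ratios above and 30 below 0. Of these ratios 43 were within 0.5 of 0, and they ran from -1.10 to 0.75.

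The 7 other caspases had 10 probes and 0 calls, with log2 ratios of -0.16 to 0.15 over 8 measured probes. CASP4, an inflammatory caspase, read 0.03 and 0.15 at its probes, and CASP5, another of that group, read 0.01.

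The 13 death receptors and adaptors had 19 probes and 0 calls, with a median log2 ratio of 0.04 over 15 measured probes. TNFRSF1A, a receptor of tumor necrosis factor, read 0.01 and 0.06. PIDD1, listed as LRDD, is the adaptor that activates caspase-2 and read -0.50, from a level of 6.67 to 4.71, which was the lowest of that list.

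The 8 IAP proteins and other caspase inhibitors had 8 probes and 0 calls. NOL3, a repressor of apoptosis, read -0.04, and so did BIRC5, which encodes survivin. XIAP, listed as BIRC4 and the IAP that binds caspase-9 and the effector caspases directly, read -0.63 from a spot in the corner, short of the threshold. The 5 measured ratios of the list ran from -0.63 to 0.19.

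The 8 other mitochondrial release factors and cytochrome c maturation genes had 11 probes and 0 calls, with a median of -0.14 over 9 measured probes. ENDOG, a mitochondrial endonuclease, read -0.31. HCCS, the lyase that attaches heme to cytochrome c, read -0.62 at one probe and -0.14 at the other.

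The 10 caspase substrates and nucleases had 19 probes, and 1 of the 15 well above background was lower. It was that of GSN, the actin-severing protein gelsolin, with a log2 ratio of -1.10 and levels of 329 and 153. Its spot lay in the corner, so leaving out the corner removes this call by construction. It was not past the threshold under quantile normalization, with the value table or in the second normexp fit. With the neighbourhood median subtracted it read -1.69, and in the first normexp fit -1.58. It was also lower with only probes well above background on both arrays. ACIN1, a chromatin-condensing factor, read -0.23. LMNA, a nuclear lamin, had the highest ratio of the list, 0.75 at a probe in the corner with levels of 16.3 and 27.3, and read -0.10 at its other probe. The median over the 14 measured probes was -0.16, with 10 ratios below and 4 above 0.

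**Figure D5:**
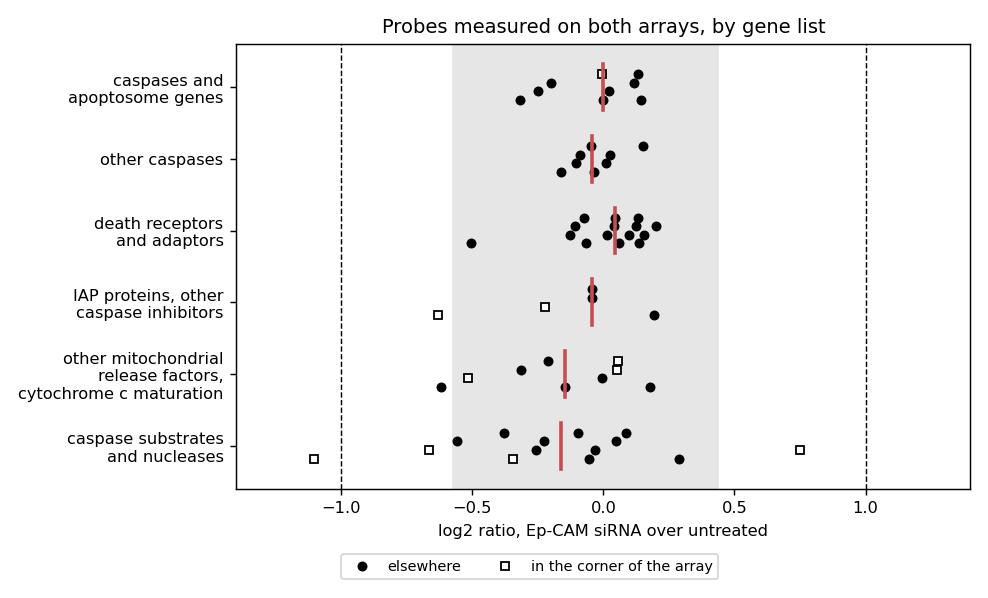
Log2 ratios, Ep-CAM siRNA-treated over untreated, of the probes measured on both arrays, by gene list, with 1 point per probe and open squares for spots in the corner of the array. Red lines are medians, dashed lines the thresholds, and the grey band the 5th to 95th percentile of all measured probes. The 9 probes of the caspases and apoptosome genes lie between -0.32 and 0.14, and GSN at -1.10 is the single point past a threshold.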

How the data were processed

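RNA of 1 untreated and 1 Ep-CAM siRNA-treated Y79 culture was hybridized to one-color Cy3 arrays. The deposited files hold spot intensity values that the authors made with Agilent Feature Extraction (version 9.5.3.1 by the file header, another version in the labels), background-subtracted and detrended but not scaled between arrays. The flags that the authors deposited with them (other than intensity) were used to leave out control spots and 233 outlier spots. The value table deposited for the series holds raw median intensity and served as an alternative.

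The intensity of each spot was divided by the 50th percentile of the transcript spots of its array, values under 0.01 were set to 0.01, log2 was taken and the spots of a probe were averaged (Python 3.11.15, numpy 2.4.6, pandas 2.3.3). The flag for a signal well above background was required of 50% or more of a probe's spots, and other probes are called dim. A probe dim on 1 array gave a bound against the lowest level well above background, and a probe dim on both gave no ratio. Calls were ratios of at least 2.0 or at most 0.5. The calling step was run on simulated data with planted changes larger than these thresholds, which does not bear on ratios near them. Normexp used limma 3.58.1 (R 4.3.3) with an offset of 50.

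The genes, lists and alternatives were chosen with earlier results of these data known. All probes of the 8 genes are named, and of the other lists each gene past the threshold and the 2 brightest, and XIAP and LMNA were named after their values were seen. Values of some genes and the sequences of some probes are not reported here. Positions of probes come from the array design (hg17). Exon and UTR positions were not analysed here. Gene names were checked in a RefSeq table (GRCh38.p14), used for names only.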

Additional observations from a re-analysis of the deposited data

How the results depend on the processing

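Of the 11 ratios and bounds of the caspase and apoptosome probes, 7 moved by more than the technical spread of 0.14 with normexp, 4 with the second normexp fit, 4 with the value table and 1 with the neighbourhood median subtracted. Their median, over ratios on both sides of 0, ran from -0.00 to 0.05 under the 11 alternatives that bear on it. The number of these probes lower was 0 under each alternative. The number higher, 1 with the processed signal, was 0 with normexp, with normexp fitted without spots dimmer than their background (the second fit), with the value table of the series, with the neighbourhood median subtracted, with the corner left out and with only probes well above background on both arrays, and it was 1 under the other 7. The CYCS bound behind it was 0.43, 0.27 and 0.26 with the 2 normexp fits and the value table. In the other pathway lists the number lower, 1, was 0 with quantile normalization, the value table, the corner left out and the second normexp fit, and 2 (GSN and ROCK1) with the neighbourhood median subtracted, and the number higher, 0, was 1 (LMNA) at ratios above 1.5 or below 0.55. The causes were not tested, but leaving out the corner or dim probes removes their calls by construction. An offset of 50 added to the signal, or background left in it, also shrinks the ratios of dim probes by construction. Over all probes, the counts higher and lower were 45 and 1056 with normexp, 128 and 76 with the second fit, 89 and 80 with the value table, 106 and 164 without the corner, 1180 and 492 at the wider thresholds, and 1049 and 1016 with no filter, and 214 were higher with probes well above background on both arrays. The second normexp fit and the median without AIFM1 (0.01) were added after the data had been seen. No paired analysis was possible because each condition had 1 array. The 4 probes dim on both arrays allow no statement on a change.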
